A study of Mus musculus with 6 samples.

Results

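Open chromatin at 33 genes of glucose use and sterol synthesis was compared between Th9, Th2 and Th17 cells, the T helper subsets that make interleukin 9, interleukins 4, 5 and 13, and interleukins 17A and 17F. The genes were taken by name, as 33 of 21924 protein-coding genes, from a list drawn up with earlier results of these data known. They comprise 17 genes of glucose transport and glycolysis, 2 regulators of glycolysis (Hif1a and Myc), 11 sterol synthesis enzymes and 3 sterol regulators. Activated T cells take up glucose through the transporters encoded by Slc2a1 and Slc2a3, trap it with hexokinases and break it down to pyruvate, which Ldha reduces to lactate for export by Slc16a3. Sterol synthesis runs from acetyl units through mevalonate, isoprenoids and squalene to cholesterol, which growing cells need for membranes, and the SREBP factors encoded by Srebf1 and Srebf2 turn the enzymes on when sterols are low, with Insig1 holding them back.

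Open DNA was mapped by ATAC-seq, which reads where the enzyme Tn5 can insert adapters into nuclei, in cells of C57BL6/J mice labelled as spleen, 2 libraries a subset, numbered 1 and 3. All 6 were wild type and came from naive CD4 T cells activated through CD3 and CD28 and cultured with polarizing cytokines: IL-4 and IL-2 for Th2, the same with TGF-β1 for Th9, and IL-6, TGF-β1, IL-23 and IL-1β for Th17, with anti-IFNγ throughout and anti-IL-4 and anti-IL-2 for Th17. Whether the 2 libraries of a subset came from separate mice was not stated, so p-values measure the spread between libraries, which may be technical. In cultures of mixed cells, a larger share of open cells and more opening per cell cannot be told apart.

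Each library had its own list of 100317 to 142213 peaks. The strength of a peak is given here as its percentile within its own list, ranked by fold enrichment over background, with 100 the strongest. The background coverage recovered from the lists was 5.65 fragments in Th9 replicate 1 and 11.2 to 17.7 in the other libraries, so the weakest peaks of Th9 replicate 1 had the highest fold, 2.11 against 1.71 to 1.83. The Il9 promoter stood at percentiles 88.6 and 90.7 in Th9, 37.1 and 44.4 in Th2 and had no peak in Th17, Il17f had a peak only in Th17 (86.7 and 87.5), and Il17a had one in Th17 (81.4 and 69.5) and in Th2 replicate 3 (36.1). Il4, a Th2 cytokine, had no peak in Th17 but was no higher in Th2 (87.8 and 88.3) than in Th9 (89.5 and 92.3). Ms4a1, Cd8a, Lyz2 and Csf1r, genes of B cells, CD8 T cells and macrophages, had no promoter peak in any library. Of the T cell genes, Cd3e was called in all 6 libraries and Cd4 in 4.

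The promoters of Hmgcs1, Insig1 and Ldha are shown for the words they hold, and not for their strength, from RefSeq on the mouse assembly GRCm38.p6, written 5′ to 3′ toward the gene and ending before the RefSeq start, or before an annotated exon that begins earlier. The Hmgcs1 promoter (chr13:119690101-119690350, plus strand) was the only promoter of 11 sterol genes with a sequence that held the sterol regulatory word TCACNCCAC, in capitals with 3 copies of CCAAT on the opposite strand, the word bound by NF-Y. The promoters of Insig1 (chr5:28071162-28071362, plus strand) and Ldha (chr7:46845554-46845803, plus strand) are shown with CACGTG in capitals, the E-box read by Myc and many related factors, and were picked after the matches were seen.
Hmgcs1: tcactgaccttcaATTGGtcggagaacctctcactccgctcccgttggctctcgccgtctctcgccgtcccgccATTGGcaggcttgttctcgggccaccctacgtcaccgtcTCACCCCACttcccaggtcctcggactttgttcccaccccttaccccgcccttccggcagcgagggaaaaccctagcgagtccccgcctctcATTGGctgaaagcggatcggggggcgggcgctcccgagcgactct
Insig1: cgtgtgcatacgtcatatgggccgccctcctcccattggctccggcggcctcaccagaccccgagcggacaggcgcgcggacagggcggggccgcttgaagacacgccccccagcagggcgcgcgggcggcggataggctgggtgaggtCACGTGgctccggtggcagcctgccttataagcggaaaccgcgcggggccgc
Ldha: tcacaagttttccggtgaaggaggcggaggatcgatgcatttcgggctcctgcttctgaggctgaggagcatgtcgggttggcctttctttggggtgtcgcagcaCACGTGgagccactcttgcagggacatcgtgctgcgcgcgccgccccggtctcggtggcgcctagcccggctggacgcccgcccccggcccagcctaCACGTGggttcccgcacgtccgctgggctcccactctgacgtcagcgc

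The word searches covered the 250 bases before the start, on both strands, in 28 of the 33 genes, those with an entry in the table used. Slc2a3, Myc, Fdps, Fdft1 and Sqle had none. The 17 glucose genes of these searches are therefore the glycolysis group without Slc2a3 and with Hif1a, and the 11 sterol genes are enzymes and regulators together. CCAAT occurred in all 11 sterol genes with a sequence and in 6 of 17 glucose genes, against 37.5% of 27025 genes of any kind. GGGCGG, the word of Sp1, occurred in 10 of 11 sterol and 12 of 17 glucose genes, against 35.4%. The hypoxia word ACGTG occurred in 9 of 17 glucose genes and 2 of 11 sterol genes, against 18.5%, and the E-box CACGTG, which contains ACGTG, in 3 (Pfkfb3, Ldha and Hif1a) and 2 (Dhcr7 and Insig1), against 6.86%. TCACNCCAC occurred in Pkm as well as Hmgcs1, against 1.22%. These matches describe the letters only and show no binding.

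The promoters of all 33 genes were open in all 6 libraries. A promoter here reaches from 1000 bp before an annotated start to 100 bp beyond it, and 58.7% of the protein-coding genes had a promoter peak in every library. The openings were also strong. The median percentile of the 33 promoters was 97.8 and 97.2 for Th9, 96.2 and 96.3 for Th2, and 97.6 and 96.2 for Th17, and 26 of 33 (78.8%) had a mean percentile of 90 or more, against 63.0% of the genes open in all 6 libraries.

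Sterol enzyme promoters had the highest median of the 4 groups, 98.1 over the genes' mean percentiles, against 97.3 for the sterol regulators, 95.8 for glycolysis and 91.7 for Hif1a and Myc. Idi1, which isomerizes the isoprenoid unit, stood between percentiles 99.7 and 99.8 in every library, Fdft1, the squalene synthase, between 98.9 and 99.7, and Sqle, the squalene epoxidase, between 98.4 and 99.8. Lss, which closes the ring to lanosterol, lay between 98.4 and 99.3. Hmgcs1, which makes the precursor of mevalonate, lay between 97.9 and 99.3, and its libraries of different subsets overlapped for Th9 and Th17. Mvk, Mvd, Fdps, Cyp51 and Dhcr7 had lowest values of 92.6 to 97.5. Pmvk, the phosphomevalonate kinase, was the weakest of the 11, with values of 86.5 and 88.8 for Th9, 85.0 and 78.7 for Th2, and 87.3 and 76.0 for Th17. The sterol regulators Srebf2 and Insig1 lay above 96 throughout, and Srebf1 between 89.5 and 93.9.

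Glycolysis promoters covered a wider range. Slc2a1, the basal glucose transporter, lay between percentiles 96.9 and 99.3 and Hk1 between 97.2 and 99.3. Slc2a3, the other transporter, lay between 81.4 and 84.8 with all 3 subsets overlapping. Ldha lay between 84.1 and 89.4, Tpi1 between 83.7 and 91.1 and Gapdh between 88.7 and 94.3. Pdk1, which keeps pyruvate out of the mitochondrial cycle, lay between 97.0 and 98.9 and Pgam1, the phosphoglycerate mutase, between 97.1 and 99.4. Pfkl, Pfkp, Aldoa, Eno1 and Pkm, which carry the middle and last steps, had lowest values of 91.3 to 96.3. Gpi1 lay between 90.1 and 94.2, Hk2 between 87.7 and 96.4 and Pfkfb3 between 85.3 and 93.4. The weakest and most variable was the lactate exporter Slc16a3, at 88.4 and 82.7 for Th9, 79.3 and 76.9 for Th2, and 79.9 and 65.3 for Th17. The Hif1a promoter lay between 96.9 and 99.0, and that of Myc, which raises transcription of glycolytic genes, at 90.2 and 90.9 for Th9, 85.7 and 78.7 for Th2, and 87.2 and 79.9 for Th17.

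**Figure D1:**
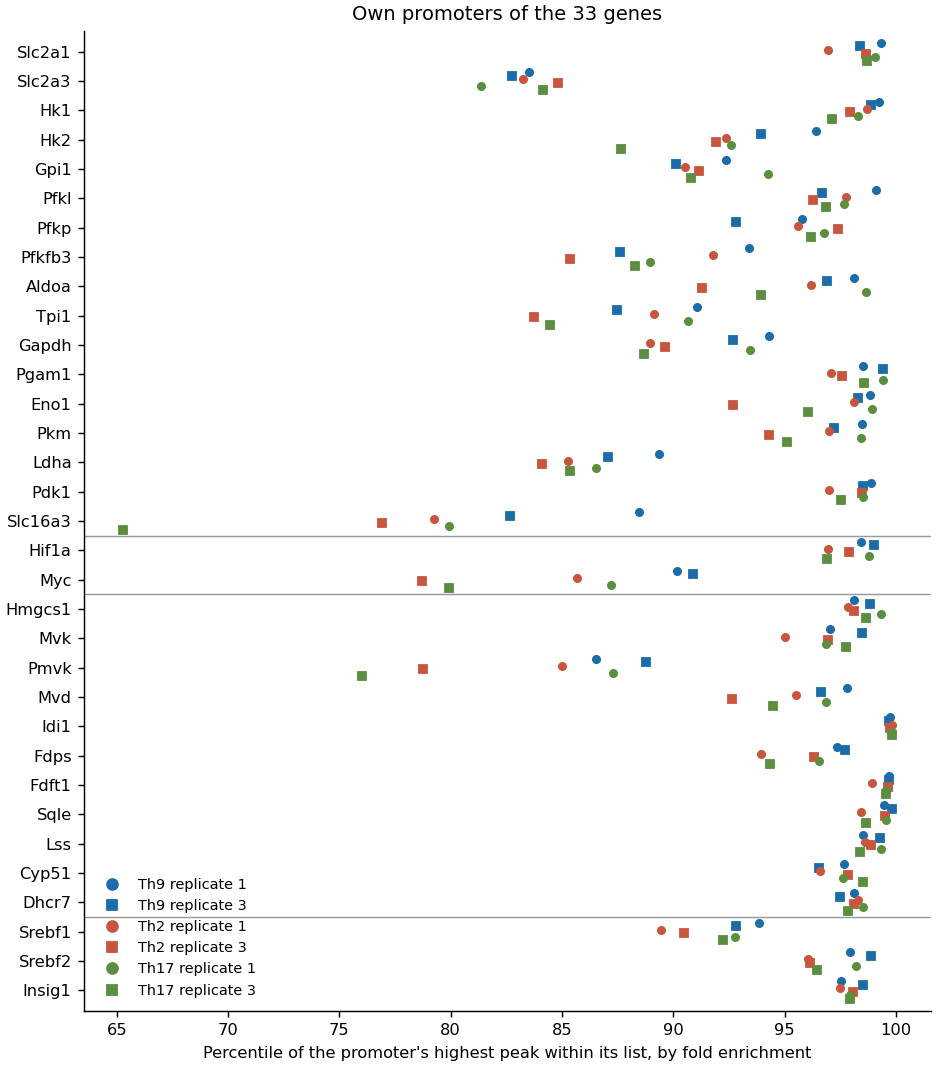
Percentile of the highest promoter peak within its list (horizontal axis) for each of the 33 genes, 1 point a library, with colours for subsets and shapes for replicates and lines between the 4 groups of genes. Most points lie above 90, Idi1 lies at 99.7 to 99.8 in every library, and Slc16a3 reaches down to 65.3.

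Some genes with several starts, among them Hk1, Hif1a and Eno1, did not open at every start in all 6 libraries. Others, such as Hk2, Pkm and Sqle, were called at every start. The starts within each of these lie close together with the same percentiles in each library, so they are not separate openings. Hk1 was called in all 6 libraries at the start at position 62340542 of chromosome 10 and at the start at 62342722 in Th9 replicate 1 alone (percentile 25.8), and in no library at its other 2. Hif1a was called at its second start, with the first called in Th2 replicate 3 alone (40.6). The upstream Aldoa start, 126809108 on chromosome 7, was a weaker opening than the main one, at 79.1 and 74.3 for Th9, 57.4 and 69.8 for Th2, and 63.5 and 45.2 for Th17, so that both Th9 libraries were above the others. Pfkfb3 opened at both of its start clusters.

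Th9 promoters were ranked above Th2 promoters in most of these genes, by small amounts. Both Th9 libraries were above both Th2 libraries in 20 of 33 promoters, against a background of 36.6% of promoters open in all libraries, and the reverse held in 1, Dhcr7 (background 17.1%). The 20 were 10 of 17 glycolysis genes (Hk1, Hk2, Aldoa, Gapdh, Pgam1, Eno1, Pkm, Ldha, Pdk1 and Slc16a3), Hif1a, Myc, 6 of 11 sterol enzymes (Hmgcs1, Mvk, Pmvk, Mvd, Fdps and Fdft1), Srebf1 and Srebf2. Against Th17, both Th9 libraries were higher in 8 promoters (background 26.7%) and lower in 2, Pfkp and Idi1 (background 13.9%). Both Th17 libraries were above both Th2 libraries in 7 promoters (background 26%), among them Srebf1, Srebf2 and Hmgcs1, and below in 0 (background 22.7%). The 3 comparisons share libraries. Some orders of Th9 over Th2 rested on near ties. For Hmgcs1 the closest values were 98.138 in Th9 replicate 1 and 98.134 in Th2 replicate 3. In replicate 3 of Th9 and Th2, Pdk1 stood at 98.52 and 98.50 and Fdft1 at 99.67 and 99.64.

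None of these promoter differences passed a test. In limma across the 50493 regions called in all 6 libraries, 36 of the regions held a promoter of these genes, and the largest difference in percentile was that of the upstream Aldoa start, 22.4 ± 10.7 (SE) higher in Th9 than in Th17 with an adjusted p of 0.458. The Srebf1 promoter stood at 93.9 and 92.8 in Th9 against 89.5 and 90.5 in Th2. The fit took the highest peak of the whole joined region, which can lie outside the promoter. The region holding the Srebf1 promoter differed by 5.15 ± 1.58 percentiles (SE, adjusted p = 0.35 by limma). On the quantile-normalized log2 fold, an alternative measure, that difference was 0.61 ± 0.17 (SE), with an adjusted p of 0.0692 by limma, the lowest of the 36 promoters. The median difference between Th9 and Th2 on that scale was 0.29 over these promoters and 0.10 over all 12615 promoter regions. Of those 12615, the percentile test called 0% for Th9 against Th2, 0.0713% for Th9 against Th17 and 0.151% for Th2 against Th17. The log2 fold test called 1.92%, 1.75% and 2.59% in the same order. Having no call among 36 promoters therefore does not set these genes apart.

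Around the genes, 213 regions were counted within the gene bodies and 10 kb on either side, of which 95 were called in all 6 libraries and 55 in a single library. Regions called in all 6 made up 44.6% of the 213, against 27.2% of the 127839 regions near any protein-coding gene. Of the 39 regions holding an own promoter, 36 were called in all 6 libraries, against 13 of 57 intronic regions and 9 of 41 downstream ones. The median percentile of regions called in all libraries was 96.9 at own promoters and 77.9 in introns. The strongest region outside an own promoter lay 68.9 kb upstream of the annotated Slc2a3 start (chr6:122810142-122813128). It stood at percentiles 99.5 to 99.9 in every library, above the Slc2a3 promoter itself. The Slc2a3 gene record runs upstream past that start to position 122801640, so the region began within 10 kb of the record.

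Subset-only regions were few. Counting a region for a subset when both of its libraries called it and no other library did, 9 were Th2-only (background 3.11%), 5 Th17-only (background 1.69%) and 4 Th9-only (background 1.55%). Another 3 were shared by Th9 and Th2 alone (background 2.47%), and 0 by Th2 and Th17 alone (background 1.41%) or Th9 and Th17 alone (background 0.316%). As shares of the 213 regions these were 4.23%, 2.35%, 1.88% and 1.41% for the first 4 patterns, in the same order of single subsets as the background. With 2 libraries a subset no permutation test of a single region can pass 0.05. No own promoter was among the 21, and with 36 of 39 own-promoter regions called in all 6 libraries few could have been.

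**Figure D2:**
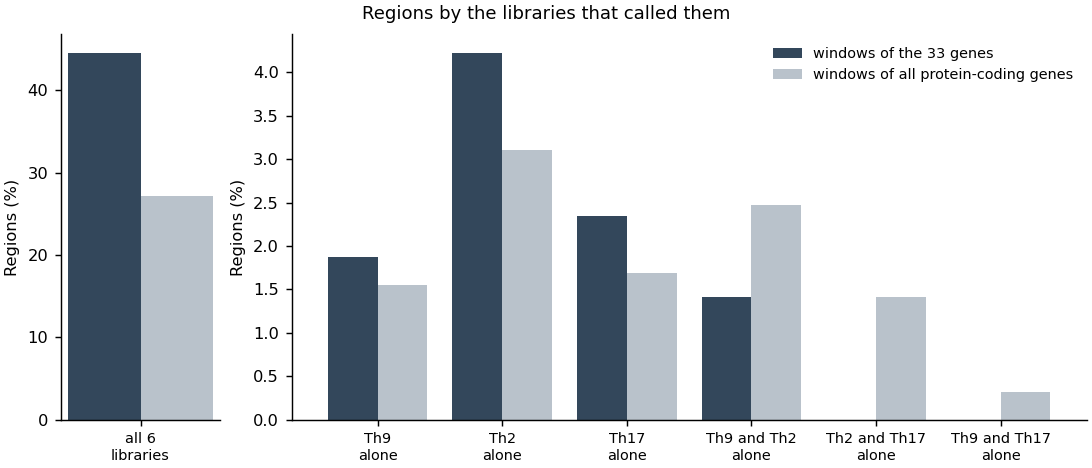
Percent of regions (vertical axis, with a separate scale for regions called in all 6 libraries) by the libraries that called them, dark for the windows of the 33 genes and light for the windows of all protein-coding genes. Regions called in all 6 make up 44.6% of the dark set and 27.2% of the light one, and each of the other patterns is below 5%.

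Hif1a, the gene of the oxygen-sensitive factor HIF-1α, which activates glycolytic genes, held the most of them, 3 Th2-only regions and 1 shared by Th9 and Th2. Of the 13 regions in its window, the Th2 libraries called 9 and 11, the Th9 libraries 3 and 4 and the Th17 libraries 2 and 2. Over all 213 regions the corresponding counts were 148 and 157, 120 and 148, and 115 and 110. In percent, the Th2 libraries called 69.2% and 84.6% of the Hif1a regions, against 60.2% and 56.0% of the 127839 regions near protein-coding genes, the Th9 libraries 23.1% and 30.8% against 59.7% and 49.2%, and the Th17 libraries 15.4% each against 53.6% and 44.4%. The second start and a region 43.4 kb downstream of it were called in all 6 libraries. A region 23.3 kb into the gene from the second start (chr12:73930877-73931549, intronic) had percentiles 73.5 and 66.1 in Th2, and 1 at 3.2 kb (chr12:73910851-73911280, intronic) had 64.2 and 55.3, with no peak in the other subsets. Another Th2-only region lay 8.8 kb upstream of the second start, at 58.0 and 46.2. The region 15.4 kb in had 86.2 and 87.2 in Th2, 57.9 in Th9 replicate 3 and no peak in the other 3 libraries. The shared region 3.3 kb upstream of the second start had 73.6 and 74.4 in Th2, 23.2 and 40.4 in Th9 and none in Th17.

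The same 13 Hif1a regions were recounted with stricter versions of the same lists. The window was picked after values were seen, and most of its regions held Th2 peaks alone, so the recount is no separate support. At a −log10 q of 5 or more, the Th2 libraries called 5 and 7 of the 13 regions and each of the other 4 libraries 2. With lists of equal length the counts were 8 and 11 in Th2, 2 and 4 in Th9 and 2 and 2 in Th17. The Th2 libraries covered the most genome with peaks, 118 and 108 Mb against 80.7 to 102 Mb in the others, and the part of this in the Hif1a counts was not tested.

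**Figure D3:**
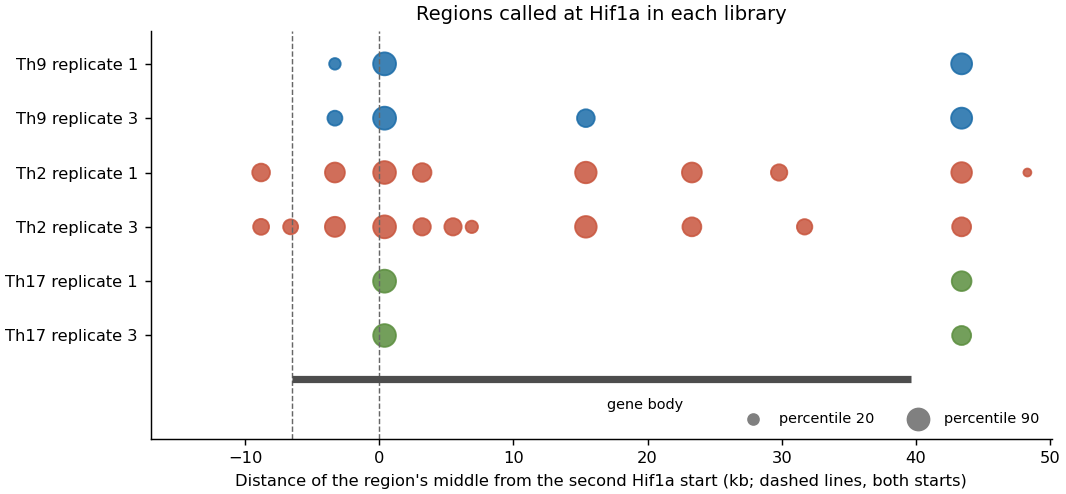
Regions called at Hif1a by distance of the region's middle from the second start (horizontal axis, kb), 1 row a library, with the point's size giving the percentile, dashed lines at both starts and a bar for the gene body. The Th2 rows hold 9 and 11 points, the Th9 rows 3 and 4 and the Th17 rows 2 each.

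The other subset-only regions of highest percentile were spread over both pathways. In Th2 alone, a region 17.0 kb from the Slc2a3 start and just past the gene's end (chr6:122725109-122726445) had percentiles 72.4 and 70.3, and 1 lying 2.7 kb upstream of Hk2 (chr6:82776951-82777326) had 44.4 and 67.3. In Th17 alone, a region of 293 bp in an intron of Slc2a1, 7.8 kb from the start (chr4:119116365-119116657), had 76.8 and 56.9. A Th17-only region over an exon of Hmgcs1, 16.2 kb from the start (chr13:119706097-119707270), had 58.5 and 77.9, and 1 in an intron of Hk1 (chr10:62277610-62278229) had 59.7 and 49.8. In Th9 alone, a region 3.7 kb upstream of Myc (chr15:61981596-61981870) had 70.4 and 54.8, and 1 lying 6.7 kb upstream of Srebf2 (chr15:82140244-82140658) had 56.4 and 52.5. An intronic Pfkp region 53.2 kb from the start was shared by Th9 (79.1 and 47.8) and Th2 (65.8 and 47.3). At a −log10 q of 5 or more, the Th9-only regions at Myc and Srebf2 and the Th17-only region at Hk1 had a peak in no library. The Hmgcs1 region then kept a peak in Th17 replicate 3 alone and the Pfkp region in Th9 replicate 1 alone. The Hk2 region and the Hif1a region 3.2 kb from the second start kept one in Th2 replicate 3 alone.

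For each subset, 1 of its subset-only regions is shown by the stretch that both libraries covered, the middle 200 bases where it was longer, from GRCm38.p6 in the direction of the gene. These are the Th17-only intronic Slc2a1 region (chr4:119116442-119116641, plus strand), the Th2-only intronic Hif1a region (chr12:73931073-73931272, plus strand) and the Th9-only region upstream of Srebf2 (chr15:82140390-82140541, plus strand).
Slc2a1 intron: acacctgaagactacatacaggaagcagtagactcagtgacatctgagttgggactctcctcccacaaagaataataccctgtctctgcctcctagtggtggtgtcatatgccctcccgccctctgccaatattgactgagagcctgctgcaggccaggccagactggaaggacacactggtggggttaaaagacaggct
Hif1a intron: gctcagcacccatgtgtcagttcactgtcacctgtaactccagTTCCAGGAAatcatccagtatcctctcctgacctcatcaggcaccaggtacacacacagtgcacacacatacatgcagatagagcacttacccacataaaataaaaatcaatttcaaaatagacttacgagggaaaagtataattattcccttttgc
Srebf2 upstream: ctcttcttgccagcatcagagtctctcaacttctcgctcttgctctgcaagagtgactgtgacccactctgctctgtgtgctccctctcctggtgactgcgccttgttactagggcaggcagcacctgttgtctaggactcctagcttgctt

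The capitals mark the words TGANTCA (AP-1), AGATAA (of the GATA family of factors), TTCNNNGAA (STAT factors) and CACGTG, searched on both strands and picked after the regions were known. The Hif1a stretch held TTCNNNGAA once, and the stretches at Slc2a1 and Srebf2 held none of the 4. Middle windows of 200 bases held TTCNNNGAA in 5.79% of 216163 regions, TGANTCA in 8.33% and AGATAA in 8.45%.

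Of the 95 regions called in all 6 libraries, 0 differed between subsets in percentile by limma, with adjusted p-values of 0.294 or more for Th9 against Th2, 0.107 or more for Th9 against Th17 and 0.0990 or more for Th2 against Th17. Across all regions this test called 0%, 0.242% and 0.757%. At an unadjusted p under 0.05 there were 14, 13 and 8 of the 95 (14.7%, 13.7% and 8.42%), against 10.2%, 11.9% and 11.99% of all regions. On simulated data with the spread of the real libraries the percentile test missed all of the planted changes, so these counts do not show that the regions were alike. The quantile-normalized log2 fold, tried as an alternative, recovered planted changes and called 3, 6 and 1 of the 95, at 8 places. Of all regions it called 1.01% as higher in Th9 than Th2 and 2.18% as lower, 3.11% as higher in Th9 than Th17 and 2.9% as lower, and 5.04% as higher in Th2 than Th17 and 2.4% as lower. In those directions the counts among the 95 regions were 2 and 1, 4 and 2, and 1 and 0. All 8 regions lay outside own promoters. Over all regions tested, the same test called 1.92%, 1.75% and 2.59% of promoter regions in the 3 comparisons. It called 3.61%, 7.43% and 9.05% of the regions without a promoter, so calls were rarer at promoters in general.

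Hk2, the inducible hexokinase, had a higher log2 fold in Th9 than in Th17 at 2 places. Neither passed the percentile test (adjusted p = 0.154 for both, limma). The intronic region 19.1 kb from the start (chr6:82752989-82755526) had percentiles 93.1 and 91.6 for Th9, 86.7 and 87.3 for Th2, and 80.7 and 66.5 for Th17, so that no 2 subsets overlapped. Its log2 fold was 0.97 ± 0.19 (SE) higher in Th9 than in Th17 (adjusted p = 0.00551, limma). The region at 28.6 kb, which overlaps an exon (chr6:82744194-82745261), had 89.3 and 94.0 for Th9, 65.8 and 82.6 for Th2, and 66.0 and 49.9 for Th17. It was 1.28 ± 0.25 (SE) higher in Th9 than in Th17 (adjusted p = 0.00621, limma), and the 0.93 ± 0.25 over Th2 did not pass (adjusted p = 0.0543, limma). The Hk2 promoter was also highest in both Th9 libraries, at 96.4 and 94.0, 92.4 and 91.9 in Th2, and 92.6 and 87.7 in Th17, without passing. Without Th17 replicate 3 the adjusted p-values of the 2 Hk2 calls were 0.107 and 0.0968, and the call at 28.6 kb was also lost without Th9 replicate 3 (0.0792) or Th17 replicate 1 (0.0620).

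Pfkp, the platelet form of phosphofructokinase, differed at 3 regions in different ways. The region 3.9 kb upstream of the start (chr13:6652199-6653083) was lowest in Th17, at percentiles 71.3 and 72.4 against 90.7 and 89.3 in Th9 and 90.9 and 86.6 in Th2. Its log2 fold in Th9 exceeded that in Th17 by 0.83 ± 0.19 (SE, adjusted p = 0.0136, limma), and that in Th2 exceeded Th17 by 0.70 ± 0.19 (SE, adjusted p = 0.0286, limma). The region 13.3 kb into the gene (chr13:6632395-6638500), which overlaps an exon, ranked highest in Th9. Its percentiles were 96.5 and 95.0 in Th9 against 85.6 and 86.8 in Th2 and 91.0 and 85.6 in Th17. Its log2 fold in Th9 was higher by 0.94 ± 0.18 than in Th2 and by 0.68 ± 0.18 than in Th17 (SE, adjusted p = 0.0113 and 0.0308, limma). Peaks there covered 3127 and 1917 bp in Th9, 6052 and 6016 bp in Th2, and 1783 and 3238 bp in Th17. The part of peak width in these values was not tested. The intronic region at 22.0 kb (chr13:6625671-6627797) ran the other way, at 67.2 and 34.4 for Th9, 86.0 and 73.8 for Th2, and 81.7 and 83.1 for Th17, and in Th9 fell by 0.77 ± 0.20 (SE) relative to Th17 (adjusted p = 0.0305, limma). The calls against Th17 at 3.9 kb were lost without Th9 replicate 3 (adjusted p = 0.0848 in limma, for Th9) or without either Th2 library (0.168 and 0.0539, for Th2), and every Pfkp call against Th17 was lost without either Th17 library. The Th9 calls at 13.3 and 22.0 kb were lost without either Th9 library (0.0528 to 0.157), and that against Th2 also without Th2 replicate 1 (0.0501).

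Pfkfb3, whose product makes the activator of phosphofructokinase, had an intronic region 23.7 kb from the nearest start (chr2:11530089-11530673) at percentiles 50.5 and 23.8 for Th9, 76.6 and 63.2 for Th2, and 87.3 and 70.3 for Th17. Its log2 fold in Th9 was lower than in Th17, with a difference of -0.84 ± 0.20 (SE, adjusted p = 0.0168, limma). In the sterol pathway, a region 9.1 kb upstream of Hmgcs1 (chr13:119680856-119681887) stood at 94.3 and 84.4 for Th9, 98.1 and 96.4 for Th2, and 96.6 and 93.2 for Th17, and differed between Th9 and Th2 by -0.77 ± 0.20 (SE, adjusted p = 0.0472, limma). The Hmgcs1 promoter stood at 98.1 and 98.9 in Th9 and 97.9 and 98.1 in Th2, a near tie that did not pass. The last of the 8 regions lay in the Mvd window but is the promoter of the neighbouring Cyba, a subunit of the phagocyte oxidase (chr8:122431747-122433718), at 96.3 and 94.9 in Th9 against 88.5 and 88.7 in Th2 (0.77 ± 0.17, SE, adjusted p = 0.0235, limma). In limma the Pfkfb3 call was lost without either Th9 library (adjusted p = 0.0669 and 0.0979) or Th17 replicate 1 (0.190). The Hmgcs1 call was lost without any library but Th9 replicate 1 (0.0513 to 0.294), and the Cyba call without any but Th2 replicate 3 (0.0566 to 0.106).

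**Figure D4:**
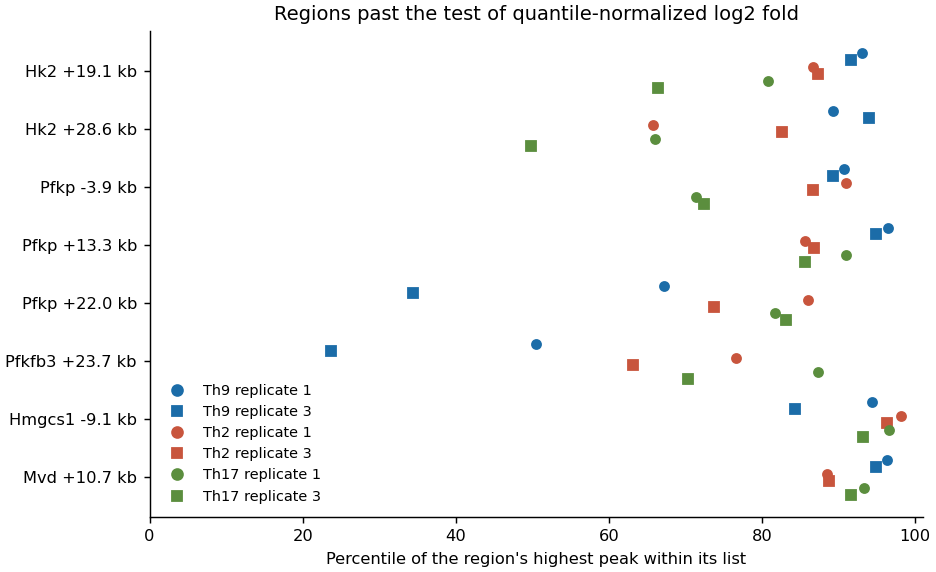
Percentile within the list (horizontal axis) of the highest peak in each of the 8 regions past the test of log2 fold, named by gene and distance from the nearest start, 1 point a library. Th9 libraries lie to the right in both Hk2 regions and to the left at Pfkfb3 and at the Pfkp region 22.0 kb from the start.

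The sequences shared by all 6 libraries at the Pfkfb3 intron (chr2:11530242-11530422, minus strand) and upstream of Hmgcs1 (the middle 200 bases, chr13:119681255-119681454, plus strand) are shown because each held TGANTCA once, in capitals, against 7.58% and 8.33% of regions in windows of the same length. The same 4 words were searched in 3 of the 8 regions, and the middle 200 bases of the Pfkp region 3.9 kb upstream of the start held none of them.
Pfkfb3 intron: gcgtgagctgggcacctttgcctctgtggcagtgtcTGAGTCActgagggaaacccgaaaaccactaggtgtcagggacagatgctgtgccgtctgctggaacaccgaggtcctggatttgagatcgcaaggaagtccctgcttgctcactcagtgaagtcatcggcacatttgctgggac
Hmgcs1 upstream: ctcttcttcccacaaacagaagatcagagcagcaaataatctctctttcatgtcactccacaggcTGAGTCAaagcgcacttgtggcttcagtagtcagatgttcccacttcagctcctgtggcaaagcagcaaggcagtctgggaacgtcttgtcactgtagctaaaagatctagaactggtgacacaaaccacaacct

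The width that peaks covered was the other measure of a region. By limma on log2 width, 0% of all regions differed between Th9 and Th2, 0% between Th9 and Th17 and 0.881% between Th2 and Th17, and of the 95 regions 0, 0 and 2 did. At an unadjusted p under 0.05 there were 13, 11 and 18 (13.7%, 11.6% and 18.9%), against 15.2%, 14.5% and 14.5% of all regions. Both regions were wider in Th2 than in Th17. The region 17.1 kb upstream of the Slc2a3 start, inside the annotated gene record (chr6:122758412-122761305), was covered over 2770 and 2381 bp in Th2, 655 and 703 bp in Th17 and 759 and 687 bp in Th9. Its log2 width was 1.92 ± 0.16 (SE) greater in Th2 than in Th17 (adjusted p = 0.0457, limma), while its percentiles overlapped. A region between the first and second Pmvk starts (chr3:89455859-89457479) was covered over 1314 and 1621 bp in Th2, 1183 and 1285 bp in Th9 and 413 and 466 bp in Th17 (1.73 ± 0.18, SE, adjusted p = 0.0473, limma). Neither passed when any 1 library was left out. Over own promoters, the median covered width was 1405 and 2028 bp in Th9, 1883 and 2226 bp in Th2 and 1400 and 1493 bp in Th17.

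Further genes of the same pathways, from a list drawn up with earlier results known, were examined alongside. Of 12 glucose genes, 11 had a promoter peak in all 6 libraries, with Hk3 at 0, and of 14 sterol genes 13, with Ebp, the sterol isomerase, called in 3. Of their tested regions, 26 and 34, the percentile test called 0 and the log2 fold test 1 and 2. A joined region 0.3 kb from a Pfkm start, at percentiles 90.2 and 92.3 in Th2 against 96.5 and 95.7 in Th17, was lower in Th2 by limma (-0.63, adjusted p = 0.0444). By the promoter definition used here, Pfkm overlapped between Th2 (90.9 and 92.3) and Th17 (89.5 and 95.7). A region 7.4 kb from the start of Msmo1, a methylsterol oxidase, stood at 97.2 and 88.7 for Th9, 99.9 and 99.7 for Th2, and 99.2 and 98.4 for Th17, and was lower in Th9 than in either (-1.29 against Th2, adjusted p = 0.00513, and -0.81 against Th17, adjusted p = 0.0265, limma). A region of Abca1, the cholesterol exporter, 41.7 kb from the start, stood at 89.8 and 81.4 for Th9, 79.5 and 81.3 for Th2, and 64.0 and 67.2 for Th17, higher in Th9 than in Th17 (0.72, adjusted p = 0.0386, limma). Of the 53 regions of the glucose genes and 92 of the sterol genes, 1 and 4 were Th2-only (background 3.11%). Another 3 and 2 were Th17-only (background 1.69%), and 0 and 2 Th9-only (background 1.55%). Ldhb, which favours the return of lactate to pyruvate, had 2 Th17-only regions, at 73.1 and 77.8 and at 74.1 and 61.2. The sterol gene Nsdhl had 2 Th2-only regions, at 61.0 and 80.9 and at 73.8 and 78.3.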

How the data were processed

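ATAC-seq was performed on 6 libraries, 2 each of Th9, Th2 and Th17 cells, grouped by their labels. Per the labels and the study's methods, the authors trimmed reads (Trim Galore 0.4.3), aligned them to mm10 (Bowtie2), removed duplicates (Picard), set aside mitochondrial and low-quality reads and called broad peaks in each library with MACS2 2.1.0, without input control or local background. A shift for Tn5 was not stated. The deposited lists give for each peak the fold enrichment, a linear ratio, and the −log10 p-value and −log10 q-value. They hold no read counts.

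Folds were ranked within each list as percentiles. Overlapping or abutting peaks of the 6 lists were joined into 236017 regions, and a region took the highest peak of each library. Genes came from GENCODE M21 (basic) on GRCm38. Percentiles and log2 widths of the 50493 regions called in all 6 libraries were fitted with limma 3.58.1 (R 4.3.3, trended variance, 3 group means, Benjamini-Hochberg adjustment over all regions, threshold 0.05), and overlaps were computed in Python 3.11.15 and checked against bedtools 2.31.1. Of the regions named, the design gave own promoters, up to 12 regions past the percentile test (there were 0) and the 10 subset-only regions of highest percentile. The regions past the log2 fold test, the Hif1a window, the counts of promoters whose libraries did not overlap and the strongest upstream region were added after values were seen. On simulated data the percentile fit recovered large shifts under small noise but missed all planted changes under the spread of the real libraries, while the log2 fold and width fits recovered part of them. Members and lists were chosen with earlier results of these data known. A result for 1 of the marker genes is not reported here. Alternatives are given below.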

Additional observations from a re-analysis of the deposited data

How the results depend on the processing

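All 33 promoters stayed called in every library under every alternative tried. The 95 regions called in all libraries became 54 when at least 50% of a region had to be covered. With a −log10 q of at least 5, the Th9-only, Th17-only and Th9-and-Th2 counts went to 0, 1 and 0 and Th2-and-Th17 to 3, and with a fold of at least 2.2, Th17-only went to 2 and Th2-and-Th17 to 2. Lists of equal length left 1 Th9-and-Th2 region, 50% coverage gave 20 Th2-only and 3 Th2-and-Th17 regions, and 5 kb windows 2 Th9-only regions. Leaving out a library gave 4 to 22 Th9-only, 9 to 28 Th2-only, 5 to 8 Th17-only, 3 to 12 Th9-and-Th2 and 0 to 4 Th2-and-Th17 regions, the highest without Th9 replicate 1, Th2 replicate 1, either Th17 library, Th9 replicate 1 and Th9 replicate 3, since fewer libraries then have to call a region or lack it.

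Percentile calls rose from 0 to 3 (Th9 against Th2), 6 (Th9 against Th17) and 1 (Th2 against Th17) on the quantile-normalized log2 fold, to 2 for Th9 against Th17 with lists of equal length, and to 0 to 1 with a library left out. The replicate numbers do not show pairing: same-numbered libraries deviated together with correlations of 0.17, 0.03 and -0.01 over regions, and the labels do not say what a number marks. With the replicate block, the percentile calls were 2 for Th9 against Th17 and 1 for Th2 against Th17, the width calls 0, and the log2 fold calls 5 for Th9 against Th2 and 2 for Th2 against Th17.

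Alternatives to the log2 fold were added after the data were seen. Coverage of 50% left 1 call for Th9 against Th2 and 2 for Th9 against Th17, and the stricter peaks (−log10 q of at least 5, or fold of at least 2.2) 3 for Th9 against Th17. Leaving out a library gave 0 to 3, 1 to 6 and 0 to 2 calls in the 3 comparisons, with 0 for Th9 against Th2 without Th9 replicate 3. The 8 regions kept their direction under every alternative in which they could be fitted, and each lost its call without at least 1 library. Width calls were 1, 0 and 1 in the 3 comparisons with a −log10 q of at least 5, 2, 1 and 4 with a fold of at least 2.2, 1 for Th9 against Th2 with lists of equal length, and for Th2 against Th17 0 with 50% coverage and 0 to 0 with a library left out. The causes were not tested. The lists set the depth limit, as a weak region may lie under a list's lowest fold.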
